A study of Mus musculus with 13 samples.

Results

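Cardiac fibroblasts taken from the hearts of older mice were compared with those taken in the first days after birth. The comparison rests on 4 of the 13 libraries of the series. The later group pools 1 library at postnatal day 28 (PN28) with 1 at PN60, which the labels call adult, and the neonatal group has 2 libraries whose titles give PN1-3 and PN1-2 and whose age field gives PN1 (replicates 1 and 2 below). All mice were wild type and of the FvB strain, and all fibroblasts were separated from enzymatically digested hearts by preplating, that is by their quicker attachment to a culture surface. The labels mention standard growth conditions without giving the time on the dish. They do not say whether libraries of a group came from separate mice or cultures, or how many hearts were pooled, so the p-values below measure the spread between these libraries only. The other cell libraries are 2 of neonatal cardiomyocytes and 1 each of cardiomyocytes at PN30 and PN67, and 5 whole ventricle libraries run from embryonic day 17 (E17) through PN1, PN10 and PN28 to PN90.

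Cardiac fibroblasts lay down and turn over the collagen and elastic matrix of the heart. Around birth they still divide and build matrix for a growing ventricle, and in the adult they are largely quiescent. They also sense damage: Toll-like and interleukin 1 receptors lead through NF-kappaB, a family of transcription factors held in the cytoplasm by inhibitory proteins, to secretion of cytokines and chemokines that call in leukocytes. Dissociation and culture are known to induce such genes as well. The ventricle libraries, made from whole tissue with another kit and scaled on their own, are given beside the cells where the genes are described, and the part of dissociation and culture in the changes was not tested.

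The fibroblast libraries had between 20404 and 22629 transcripts at 1 FPKM or more (fragments per kilobase of transcript, scaled to the mapped fragments of the library), and the median half-width of the deposited confidence interval of such a transcript was 7.17% to 7.30% of its value. How many reads each library had is not known. The neonatal libraries resembled each other more closely (Spearman's rho of 0.989 across genes) than the PN28 and PN60 libraries did (0.963). The 12 measured fibroblast markers summed to between 3893 and 4198 FPKM in the 4 fibroblast libraries against 351 to 500 FPKM in the cardiomyocyte libraries, so that these markers were high in all 4. Cardiomyocyte markers did move with the groups. All 15 were lower in the later fibroblasts, with sums of 1387 and 1183 FPKM in the neonatal libraries and 31.7 and 39.9 FPKM in the later ones, while the cardiomyocyte libraries held 12475 to 52440 FPKM. The median marker stood at 10.3% and 8.15% of its level in neonatal cardiomyocytes in the neonatal fibroblast libraries, and at 0.0645% and 0.0623% of its level in later cardiomyocytes at PN28 and PN60. Macrophage and leukocyte markers moved the other way: 13 of 16 were higher later and none was lower, and their sums were 142 and 272 FPKM in the neonatal libraries and 1210 and 932 FPKM at PN28 and PN60. Lyz2, a lysozyme of macrophages, was at 33.8 and 64.8 FPKM and then at 446 and 391 FPKM, and Ptprc, which encodes the leukocyte antigen CD45, at 0.505 and 0.76 and then at 6.49 and 4.83 FPKM. Endothelial markers were lower later in 8 of 14 cases, with sums of 741 and 876 FPKM and then 550 and 553 FPKM. The part of macrophage RNA in the rises described below was not tested. In bulk libraries, fewer cells of a type and less RNA per cell cannot be told apart.

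Of 12076 genes tested, 2382 (19.7%) were higher and 2507 (20.8%) lower in the later fibroblasts, 40.5% in all (limma on log2(FPKM + 1), Benjamini-Hochberg adjusted p under 0.05). A log2 change here is the mean of the 2 later libraries minus the mean of the 2 neonatal ones on that scale. It understates the change of low genes. Where a pair of FPKM values is given for a gene, the neonatal pair is in the order replicate 1 and replicate 2 and the later pair in the order PN28 and PN60. At least 2-fold changes were seen for 1138 of the genes that rose and 907 of those that fell, and 48 rose and 16 fell at least 16-fold. The later libraries lay outside the neonatal range, on the same side, for 69.4% of genes, so groups that do not overlap are common here. With 2 libraries a group no permutation test can reach 0.05. The split of calls depended on scaling: on FPKM as deposited 1474 genes were higher and 4656 lower, with the median gene at -0.30 on the log2 scale where the median-scaled values had -0.02. Neonatal replicate 2 and replicate 1 each carried weight as well, since 1365 genes were higher and 1407 lower without replicate 2, and 1756 and 1611 without replicate 1. When the cardiomyocyte profile was subtracted from each fibroblast library, 2380 of the 2382 rises and 1578 of the 2507 falls stayed called in the same direction, and 120 of the falls had a change above 0 instead. The share subtracted was 10.3% and 8.15% in the neonatal libraries and 0.0645% and 0.0623% in the later ones. Subtraction therefore moves changes almost only upwards. The count of rises kept was thus largely set in advance and is no check of the rises.

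**Figure D1:**
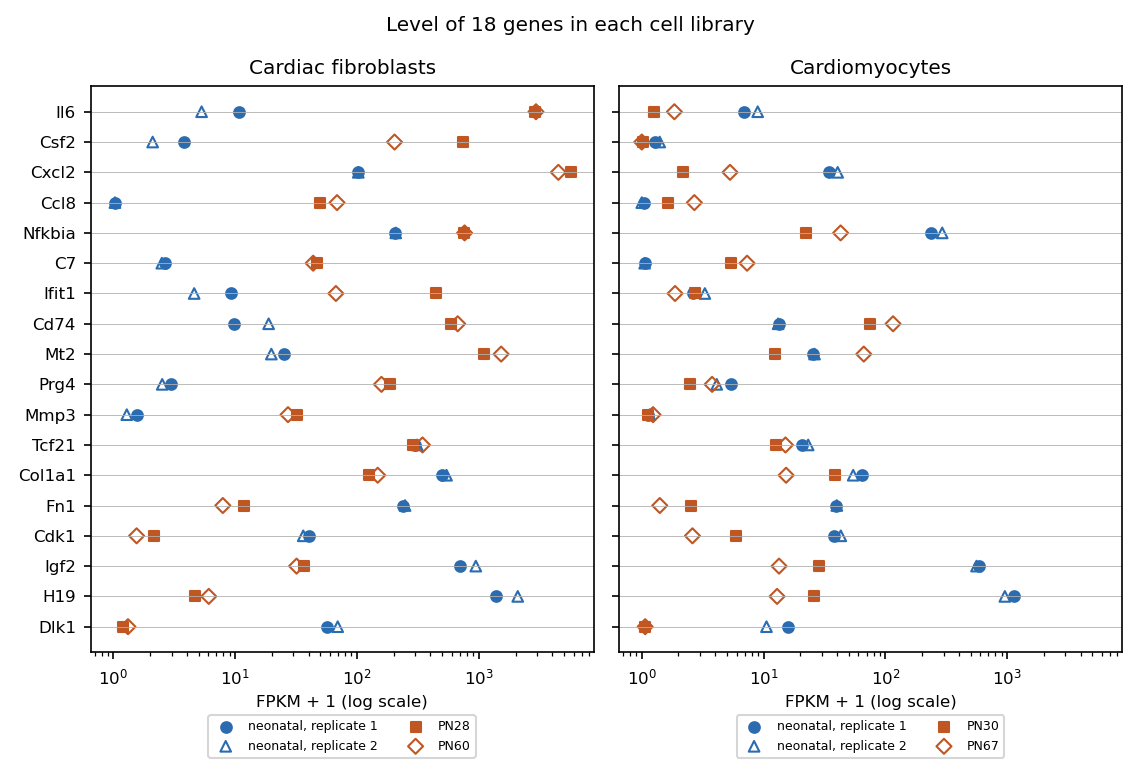
FPKM of 18 genes in the 4 fibroblast and 4 cardiomyocyte libraries, as FPKM + 1 on a logarithmic axis, 1 point per library, with 1 row per gene. In the fibroblasts the later libraries sit to the right of the neonatal ones for cytokine, interferon and remodelling genes and to the left for Col1a1, Fn1, Cdk1, Igf2, H19 and Dlk1; for Tcf21 they overlap.

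The interleukin 6 family signals through the shared receptor chain gp130, encoded by Il6st, to STAT3, and Socs3 is its feedback inhibitor. Of 14 measured members of the family and its receptors 10 rose and none fell, with a median log2 change of 1.29 against -0.02 for all genes. Il6 itself was at 9.79 and 4.3 FPKM in the neonatal libraries and at 2872 and 2939 FPKM, a log2 change of 8.59 ± 0.33 (SE), the largest rise among all genes tested (limma adjusted p = 7.05e-06). Both later libraries stood far above both neonatal ones and close to each other. Leukaemia inhibitory factor, Lif, rose from 14.9 and 8.16 FPKM to 331 and 331 FPKM (log2 change 4.78 ± 0.24), and oncostatin M, Osm, from 0.406 and 0.659 to 4.73 and 11.8 FPKM (2.49 ± 0.33). Receptors and signal transducers were also higher. The oncostatin receptor Osmr rose by 2.42 ± 0.21 on the log2 scale, Il6st by 1.15 ± 0.12 and the kinase Jak1 by 1.35 ± 0.20. The Il6 receptor Il6ra (0.95 ± 0.34, adjusted p = 0.0553) and Stat3 (0.80 ± 0.28, adjusted p = 0.0537) did not pass the test, but did without PN28 (adjusted p = 0.000878 and 0.00101). Socs3 stood at 25.5 and 30.6 FPKM and then at 233 and 228 FPKM. Cardiomyocytes showed no such rise: Il6 was at 5.92 and 7.94 FPKM in the neonatal and 0.25 and 0.852 FPKM in the later cardiomyocyte libraries, and the difference between the changes in the 2 cell types was 10.96 on the log2 scale (limma adjusted p = 6.79e-06). In whole ventricles, which were scaled on their own, Il6 was at 0.0224 FPKM at PN28 and listed at 0 at PN90, and Lif at 0.122 and 0.0621 FPKM.

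Colony-stimulating factors drive the growth and survival of myeloid cells. Of 8 measured factors and receptors 7 rose and none fell. Csf2, which encodes GM-CSF, went from 2.78 and 1.1 FPKM to 734 and 202 FPKM, and Csf3, which encodes G-CSF, from 4.73 and 5.26 FPKM to 84.2 and 70.1 FPKM. The later libraries differed more from each other for Csf2 than for Csf3, but all later values lay above all neonatal ones. Csf1, the macrophage factor, was already expressed in the neonatal libraries at 153 and 72.5 FPKM and rose to 1548 and 817 FPKM (log2 change 3.41 ± 0.41). Csf2rb, the beta chain of the GM-CSF receptor and a gene of myeloid cells, rose from 2.97 and 4.95 to 86.9 and 46.5 FPKM, beside the macrophage markers given above.

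Chemokines direct the migration of leukocytes. All 9 CXC chemokines measured lay above their neonatal mean in the later group, 8 of them past the test, and 12 of 14 CC and other chemokines rose, with medians of 3.61 and 3.37 on the log2 scale. Genes were tested at a mean of at least 1 FPKM over the 8 cell libraries, which low genes can reach through the later fibroblasts alone. Without this filter 9 of 13 CXC chemokines rose, with a median of 1.84. Of 18 CC and other chemokines 12 then rose and 1 fell, with a median of 2.72. Among the CXC genes Ppbp did not pass the test (log2 change 0.09) and Pf4 rose by 1.36. Cxcl1 and Ccl2 were not analysed because a transcript of each was marked as not quantified in at least 1 library. Neutrophil-attracting chemokines lie in the same region of chromosome 5 in the files' mm9 coordinates: Cxcl5 at chr5:91188325-91190651, Cxcl3 at chr5:91215129-91217112 and Cxcl2 at chr5:91332899-91334935, all on the plus strand. Cxcl2 was at 101 and 101 FPKM and then at 5671 and 4487 FPKM, a log2 change of 5.63 ± 0.36. Cxcl3 was at 24.8 and 21.4 and then at 1943 and 670.2 FPKM, and Cxcl5 at 2.68 and 0.653 and then at 375 and 214 FPKM. In each of the 3 genes PN28 was the higher of the later libraries. A CC cluster on chromosome 11 behaved in the same direction: Ccl7 (chr11:81859214-81861027) went from 365 and 232 to 4453 and 4222 FPKM and Ccl8 (chr11:81928687-81930301) from 0.0331 and 0.0298 to 48.8 and 67.5 FPKM. Here the starting levels differed. Ccl7, a monocyte chemokine, was abundant in neonatal fibroblasts, whereas Ccl8 was near 0 there. Cxcl12, the homeostatic chemokine that retains haematopoietic cells, rose by 1.84 ± 0.20 on the log2 scale, and it also rose in cardiomyocytes (0.99, adjusted p = 0.00312). In ventricles Cxcl12 was at 47 FPKM at PN28 and 45.5 FPKM at PN90, where Cxcl2 was at 0.0903 and 0.233 FPKM.

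Among other interleukins, tumour necrosis factor family members and their receptors, 16 of 19 rose and none fell, though 1 fell when PN28 or PN60 was left out. Without the filter on mean FPKM, 16 of 22 rose and none fell. Il33, an alarmin stored in nuclei of stromal cells, was at 2.91 and 1.51 FPKM and then at 100.3 and 65.3 FPKM, and Tnf at 6.99 and 11 and then at 152 and 201 FPKM. Anti-inflammatory members rose with them: Il10 from 5.21 and 5.33 to 149 and 99.7 FPKM and the interleukin 1 receptor antagonist Il1rn from 14.4 and 14.6 to 403 and 147 FPKM. The interferon gene Ifnb1 rose from 0.954 and 1.08 FPKM to 87.3 and 116 FPKM (log2 change 5.66 ± 0.16) and was listed at 0 in all 5 ventricle libraries. Across the 64 genes of the 5 cytokine and chemokine lists, 24 stayed under 1 FPKM in every ventricle library, against 837 of 12049 genes in all.

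NF-kappaB pathway genes were higher in 17 of 21 cases and lower in none, with a median log2 change of 1.53. Nfkb1, which encodes the p105 precursor of the p50 subunit, rose from 99.9 and 85.5 FPKM to 416 and 490.3 FPKM. The inhibitors that are themselves targets of the pathway rose as well: Nfkbia from 203 and 207 to 751 and 762 FPKM, Nfkbie by 2.35 ± 0.18 on the log2 scale, and the deubiquitinase Tnfaip3 (A20) by 2.59 ± 0.17. Birc3, an inhibitor of apoptosis, went from 14.4 and 13.2 FPKM to 95.8 and 115 FPKM. In cardiomyocytes Nfkbia and Tnfaip3 were lower at the later ages, with log2 changes of -3.09 and -4.02 (adjusted p = 4.96e-05 and 3.83e-06). Promoters were searched for an NF-kappaB type site (GGG, 2 free bases, TT, 1 free base and CC in a row, on either strand) in RefSeq windows of GRCm38.p6 that run from 250 bases before to 50 bases after a start. An AP-1 type site (TGA, 1 free base and TCA) was searched as well. It was in 10 of 46 cytokine and chemokine genes and 4 of 15 NF-kappaB pathway genes, against 6.43% of tested genes. The NF-kappaB type site was found in 7 of the 15 NF-kappaB pathway genes with a window and in 8 of 46 cytokine and chemokine genes, against 6.45% of 9138 tested genes with a window and 4.79% of all 32851 windows. Il6, Cxcl2, Cxcl3, Csf1 and Il1rn were among these 8. Csf2, Ccl8, Lif, Il33 and Tnf, which also rose, had no match in their windows. Among all genes higher later the NF-kappaB type site was in 7.40%, near the share of tested genes. A match describes letters and is not a bound site. The stretches of Il6, Cxcl2 and Nfkbia, printed 5′ to 3′ on the gene's strand with the match in capitals, show its place shortly before the start, 44 bases upstream for Il6 and 29 bases upstream for Nfkbia, and as a pair for Cxcl2:
Il6, chr5:30013050-30013099, plus strand: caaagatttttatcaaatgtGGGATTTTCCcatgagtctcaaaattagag
Cxcl2, chr5:90903782-90903850, plus strand: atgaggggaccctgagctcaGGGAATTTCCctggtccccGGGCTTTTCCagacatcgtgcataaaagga
Nfkbia, chr12:55492648-55492696, minus strand: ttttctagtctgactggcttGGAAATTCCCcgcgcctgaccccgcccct

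Complement genes rose in 15 of 19 cases, and 1, the inhibitor Cd59a, fell by 0.72 ± 0.21, a call that was lost without PN28 (adjusted p = 0.0989) or neonatal replicate 2 (0.188). It was lost as well after subtraction of the cardiomyocyte profile (-0.51, adjusted p = 0.123) and with only the 4 fibroblast libraries fitted (adjusted p = 0.11). C7, a component of the membrane attack complex, was at 1.64 and 1.5 FPKM and then at 45.6 and 42.6 FPKM, and C3, the central component, at 3.93 and 8.54 and then at 80.0 and 170.2 FPKM. The C1 esterase inhibitor Serping1 rose from 68.7 and 67.9 FPKM to 629 and 875 FPKM. In cardiomyocytes 15 of the 19 complement genes rose and none fell, with a median log2 change of 1.90 against 1.86 in fibroblasts. Complement genes were also higher at the later ages in ventricles. C7 was at 0.208 FPKM there at PN1 and at 8.61 and 9.29 FPKM at PN28 and PN90, and 11 of the 19 were at least 2-fold higher at both later ages than at PN1, against 6.84% of all genes. Acute phase and innate defence genes were divided: 9 of 13 rose and 2 fell. Without the filter on mean FPKM 11 of 20 rose and 3 fell. Ptx3, a soluble pattern receptor, rose from 142 and 123 FPKM to 1539 and 954 FPKM, while S100a9, a neutrophil calprotectin subunit, fell from 24.3 and 42.5 FPKM to 0.461 and 0.836 FPKM (log2 change -4.34 ± 0.29). Lcn2, a widely used marker of acute inflammation, did not pass the test, at 2.33 and 3.82 FPKM and 4.77 and 3.23 FPKM.

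Interferon-response and MHC class I genes rose in 26 of 28 cases and fell in none, with a median log2 change of 2.72. Ifit1, which binds foreign RNA, was at 8.16 and 3.6 FPKM in the neonatal libraries and at 442 and 66 FPKM (log2 change 4.73 ± 0.77), and Isg15, a ubiquitin-like modifier, at 18.7 and 12.1 and then at 574 and 147 FPKM. The later libraries lay closer together for antigen-presenting genes: H2-D1 rose from 238 and 263 FPKM to 1257 and 1204 FPKM (2.29 ± 0.15) and B2m from 442 and 444 to 1657 and 1294 FPKM. Without neonatal replicate 2, 19 of the 28 were called, and Ifit3, at 4.44 and 2.07 and then 224 and 20.6 FPKM, missed the threshold (adjusted p = 0.0704). MHC class II genes, which belong to antigen-presenting cells, rose in 5 of 5 cases: Cd74, the invariant chain, from 8.86 and 17.8 FPKM to 592 and 669 FPKM, beside the macrophage marker sums given above. The interferon-stimulated response element, searched as GAAA, 2 free bases and GAAA in a row on either strand, was in the windows of 12 of 23 genes of the interferon and class I list (B2m, Bst2, Gbp2, Gbp3, Gbp7, H2-T23, Ifih1, Ifit1, Ifit3, Isg15, Oas1a and Stat2) against 3.75% of tested genes and 3.44% of all windows. Of the other lists, elastic fibre and fibronectin genes had this element most often, in 4 of 9. In Ifit1 it occurs as a pair and in Isg15 as overlapping copies; the 2 stretches show this arrangement, with matches in capitals:
Ifit1, chr19:34640765-34640833, plus strand: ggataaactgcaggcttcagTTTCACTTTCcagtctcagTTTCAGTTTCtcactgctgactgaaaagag
Isg15, chr4:156200855-156200916, minus strand: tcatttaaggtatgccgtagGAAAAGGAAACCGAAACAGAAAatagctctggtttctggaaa

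The 2 later ages differed in these interferon genes. All 28 were higher at PN28 than at PN60, 20 of them by at least 2-fold on the FPKM + 1 scale, with a median log2 difference of 1.67. Over all genes 2.68% were at least 2-fold higher at PN28 and 1.94% at PN60. Oasl2 was 9.36 times as high at PN28 as at PN60, Ifit3 10.9 times and Ifit1 6.69 times. Oxidative stress genes leaned the same way, with 7 of 21 genes of the Nrf2 and metallothionein list at least 2-fold higher at PN28 and none at PN60. Immediate early genes leaned the other way: 12 of 26 were at least 2-fold higher at PN60 and none at PN28, and Fos was at 89.4 and 438 FPKM. Each age is 1 library, so no test of this difference exists, and age cannot be told apart from preparation.

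**Figure D2:**
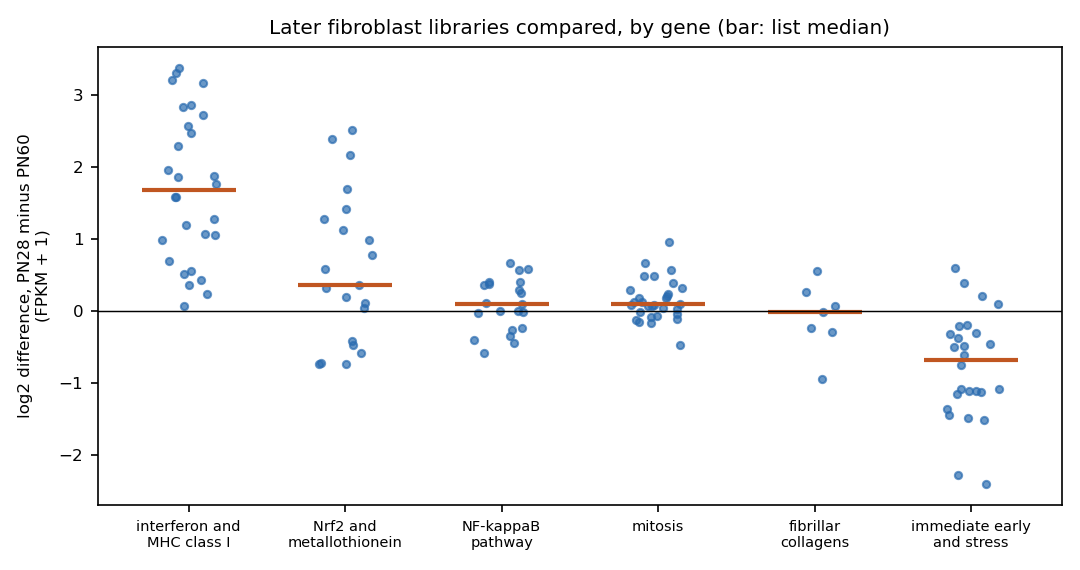
Log2 difference between the PN28 and PN60 fibroblast libraries, from FPKM + 1, for the members of 6 lists, 1 point per gene, with the list median as a bar. All 28 interferon and class I genes lie above 0, and most immediate early genes lie below it.

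Metallothioneins bind zinc and copper and respond to metal and oxidative stress. Mt2 was at 24.3 and 18.8 FPKM and then at 1099 and 1521 FPKM, and its neighbour Mt1 at 51.7 and 48.6 and then at 849 and 1405 FPKM. Of the 21 genes of the list 13 rose and 1 fell, with 8 rises when either neonatal replicate was left out and 2 falls without PN28. The superoxide dismutases Sod2 (2.65 ± 0.13) and Sod3 (3.32 ± 0.23) were among them, and both also rose in cardiomyocytes, by 2.22 and 2.45 on the log2 scale. Haem oxygenase, Hmox1, reached 3989 and 1228 FPKM from 573 and 492 FPKM, a rise that missed the threshold when neonatal replicate 2 (adjusted p = 0.0825) or replicate 1 (0.0546) was left out. Of 26 immediate early and stress genes 10 rose and 1 fell, against 5 and 0 without neonatal replicate 2, 6 and 2 on FPKM as deposited and 3 falls without PN60. Gadd45b, Nr4a3, Ier3 and Fosl1 rose by 2.37, 2.36, 2.30 and 1.94 on the log2 scale, while Fos itself, at 108 and 156 FPKM in the neonatal libraries, did not pass the test (0.61 ± 0.73), though it did without PN28 (1.75, adjusted p = 0.0374). Fos was at most 1.43 FPKM in ventricles. Of 13 prostaglandin genes 5 rose and 3 fell, where 19.7% of all genes were higher and 20.8% lower, so the share of falls was near that of all genes. The rises came to 3 when either neonatal replicate was left out or on FPKM as deposited. The falls came to 0 after subtraction of the cardiomyocyte profile, without PN28 or without neonatal replicate 2, to 1 without replicate 1 or with only the 4 fibroblast libraries fitted, and to 5 on FPKM as deposited. The inducible cyclooxygenase Ptgs2 rose from 95.4 and 65.7 FPKM to 996 and 1024 FPKM and the prostacyclin receptor Ptgir from 7.36 and 3.62 to 47.9 and 39.6 FPKM. The prostaglandin D synthase gene Ptgds fell from 4.31 and 3.85 FPKM to 0.188 and 0.549 FPKM (log2 change -1.90 ± 0.63), and stood at -0.40 after subtraction (adjusted p = 0.661). Its call was lost when any 1 of the fibroblast libraries was left out, with adjusted p-values from 0.0592 without PN60 to 0.152 without neonatal replicate 1. Vcam1, an adhesion molecule for leukocytes from the NF-kappaB list, rose from 337 and 274 FPKM to 1138 and 758 FPKM. The list of integrins and adhesion genes does not hold Vcam1. Of its 25 genes 1 rose and 10 fell, against 19.7% and 20.8% of all genes. There were 6 falls when either neonatal replicate was left out or with only the 4 fibroblast libraries fitted, and 4 rises without PN60 or after subtraction and 3 without PN28.

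Fetal growth genes were lower later, and H19 fell furthest of all genes tested. H19, an imprinted noncoding RNA at chr7:149761434-149764048 (minus strand, mm9), was at 1369.6 and 2082 FPKM in the neonatal libraries and at 3.65 and 5.06 FPKM, a log2 change of -8.31 ± 0.34. Its neighbour Igf2 (chr7:149836673-149852721), the fetal growth factor expressed from the other parental allele, fell from 693 and 942 FPKM to 35.4 and 30.9 FPKM (-4.57 ± 0.32). Dlk1, a Notch-related inhibitor of differentiation on chromosome 12, fell from 55.7 and 68.3 FPKM to 0.207 and 0.317 FPKM (-5.64 ± 0.21), but Meg3, the noncoding gene of the same imprinted cluster, was at 240.4 and 257 and then at 187 and 169 FPKM and did not pass (adjusted p = 0.0513, or 0.00568 on FPKM as deposited). Both neonatal libraries stood above both later ones for these 4 genes. Of 20 imprinted genes measured 13 fell and 1, Impact, rose (2 without PN28), from 8.34 and 8.54 FPKM to 27.4 and 23.9 FPKM. Slc38a4, Peg3, Plagl1 and Cdkn1c fell by 3.01, 2.33, 1.77 and 1.74 on the log2 scale. Subtracting the cardiomyocyte profile left H19 at -8.23 and Igf2 at -4.47, and 11 of the 20 genes still fell. The other libraries went the same way. H19 went from 4578 FPKM at E17 to 27.8 FPKM at PN90 in ventricles and changed by -5.83 in cardiomyocytes, and 11 of the 20 genes were at least 2-fold lower in ventricles at PN28 and PN90 than at PN1, against 4.57% of all genes. The fall was larger in fibroblasts than in cardiomyocytes for H19 (difference -2.49, adjusted p = 0.00316) and Dlk1 (-2.03, adjusted p = 0.000836), and for Plagl1, a growth regulator, it was smaller (3.09, adjusted p = 0.000107).

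Of 9 oncofetal genes and targets of the microRNA let-7, 5 fell and 1 rose, with 3 falls without neonatal replicate 1 or with only the 4 fibroblast libraries fitted. The riser, the chromatin protein gene Hmga1, went from 115 and 80.5 FPKM to 238 and 143 FPKM, and it was not called without PN28 (adjusted p = 0.065), without neonatal replicate 2 (0.148), on FPKM as deposited (0.0717) or with only those 4 libraries (0.0738). The Igf2 mRNA-binding protein genes Igf2bp1 and Igf2bp3 went from 5.59 and 4.44 to 0.185 and 0.106 FPKM and from 6.11 and 6.26 to 0.828 and 0.202 FPKM, and Hmga2, a relative of Hmga1, from 16.5 and 8.12 to 3.17 and 1.93 FPKM. In the insulin-like growth factor axis, 4 of 16 genes rose and 5 fell, of which 2 falls were left without neonatal replicate 2 and 8 were called on FPKM as deposited. Over all genes 19.7% were higher and 20.8% lower. Igfbp6, a binding protein that prefers IGF2, rose from 11.6 and 11.8 FPKM to 77.3 and 122 FPKM, and Igfbp3 rose by 1.23 ± 0.22. Igf1 stood at 8.13 and 9.86 FPKM and then at 12 and 15.5 FPKM, a rise (0.56 ± 0.16) that missed the threshold on FPKM as deposited (0.23, adjusted p = 0.304) and also missed the threshold without neonatal replicate 1 (adjusted p = 0.164), without replicate 2 (0.0586) and without PN60 (0.0715).

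Cell division genes were lower in the later fibroblasts as a group. All 30 mitosis genes and 27 of 29 DNA replication genes fell, with medians of -2.27 and -1.46 on the log2 scale. Cdk1, the kinase that starts mitosis, was at 39.1 and 35.2 FPKM and then at 1.16 and 0.551 FPKM (log2 change -4.38 ± 0.35), Top2a, the topoisomerase that untangles chromosomes, at 18.9 and 16.8 and then at 0.629 and 0.784 FPKM, and Mki67, which encodes the proliferation antigen Ki-67, at 10.3 and 10.6 and then at 3.45 and 1.3 FPKM. The later libraries were low in all 3. Rrm2, the ribonucleotide reductase subunit of S phase, fell by 2.64 ± 0.18 on the log2 scale. The sliding clamp gene Pcna, at 7.52 and 9.02 and then at 7.61 and 8.35 FPKM, and the helicase subunit gene Mcm7 (-0.69 ± 0.27) were the replication genes that did not pass, and Mcm7 did without PN28 (adjusted p = 0.000699) and on FPKM as deposited (0.0117). Regulators of the G1 phase changed in part, with 11 of 23 lower (7 without neonatal replicate 2) and 1 higher (3 without PN60 and 2 without PN28): Cdk2 fell by 1.78, Cdk4 by 1.14 and Ccnd1 by 1.13, and the inhibitor Cdkn1a, at 213 and 194 and then at 303 and 345 FPKM, did not pass. In ventricles 28 of the 30 mitosis genes were at least 2-fold lower at PN28 and PN90 than at PN1, and Cdk1 fell in cardiomyocytes too, by 3.36 on the log2 scale, with no test-passing difference between the cell types (adjusted p = 0.115). The cell-cycle homology region, TTTGAA on either strand, was in the windows of 20 of 26 mitosis genes against 14.2% of tested genes and 17.9% of all windows, and together with a CCAAT box, bound by NF-Y, in 18 of 26 against 5.82% and 6.95%. The Cdk1 and Ube2c windows show both elements, in capitals on either strand:
Cdk1, chr10:69352913-69353140, minus strand: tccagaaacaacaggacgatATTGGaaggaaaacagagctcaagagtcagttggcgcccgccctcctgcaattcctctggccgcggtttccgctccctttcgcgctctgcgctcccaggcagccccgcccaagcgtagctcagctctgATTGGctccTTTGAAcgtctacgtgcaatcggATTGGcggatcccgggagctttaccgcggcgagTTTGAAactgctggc
Ube2c, chr2:164769681-164769925, plus strand: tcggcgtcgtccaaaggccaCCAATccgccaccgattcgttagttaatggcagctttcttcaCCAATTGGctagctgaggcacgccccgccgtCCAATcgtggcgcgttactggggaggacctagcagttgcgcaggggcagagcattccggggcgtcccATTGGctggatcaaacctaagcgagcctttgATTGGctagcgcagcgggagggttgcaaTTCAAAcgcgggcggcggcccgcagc

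**Figure D3:**
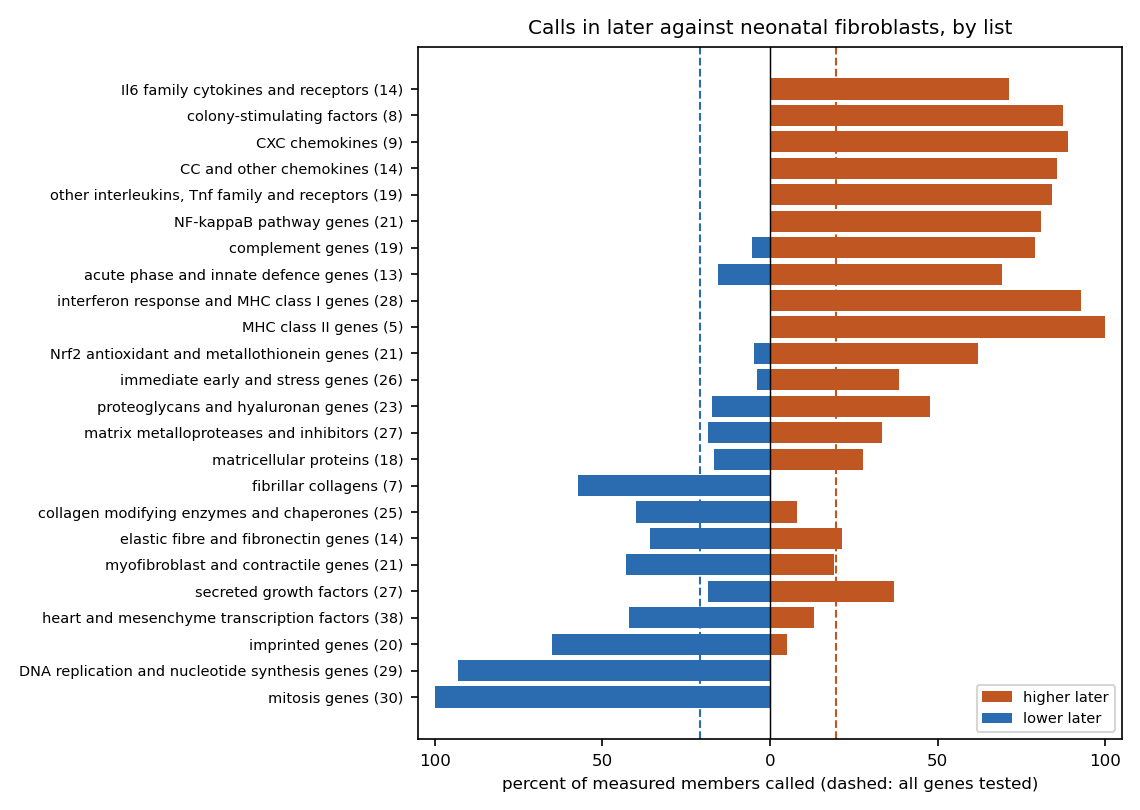
Share of the measured members of 24 gene lists that were higher (right) or lower (left) in the later fibroblasts at an adjusted p under 0.05, in percent, with the number of members beside each name. Dashed lines mark the shares over all 12076 genes, 19.7% higher and 20.8% lower; mitosis genes reach 100% on the left and MHC class II genes 100% on the right.

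Matrix genes were split between a neonatal and a later set. Type I collagen, the main fibrillar collagen of the heart, was lower later: Col1a1 went from 501 and 541 FPKM to 125 and 147 FPKM (log2 change -1.94 ± 0.37) and Col1a2 from 769 and 714 to 278 and 265 FPKM. Col5a1, whose product sets fibril diameter, fell from 280.1 and 270.5 FPKM to 71.6 and 88.1 FPKM. Of 7 fibrillar collagens measured 4 fell and none rose, with 1 rise without PN60. Type VI collagen did not pass the test, with -0.30 ± 0.25 for Col6a1 and 0.07 ± 0.18 for Col6a3. Col26a1 fell from 37.6 and 37.5 FPKM to 3.22 and 1.39 FPKM and was the largest fall on the log2(FPKM + 1) scale among the collagens tested, whereas Col8a1 rose from 9.27 and 7.61 FPKM to 66 and 60.3 FPKM. Basement membrane collagens of minor networks rose from low levels, Col4a3 and Col4a4, which lie head to head on chromosome 1, from 0.336 and 0.572 to 6.35 and 4.14 FPKM and from 0.348 and 0.508 to 5.99 and 5.29 FPKM. Col3a1, Col4a1, Col4a2, Postn and Dcn were not analysed here because a transcript of each was marked as not quantified in at least 1 library. Enzymes that modify and process collagen fell more often than they rose, 10 against 2 of 25, with 16 falls and 1 rise on FPKM as deposited, 4 rises without PN28 and 1 without neonatal replicate 2: the prolyl hydroxylase P4ha3 by 2.20, the procollagen protease Adamts14 by 1.93 and the chaperone Fkbp10 by 1.70 on the log2 scale. Pcolce2, an enhancer of procollagen processing, rose from 2.73 and 2.25 FPKM to 49.8 and 67.6 FPKM. The collagen chaperone Serpinh1 (-0.84 ± 0.34) and the crosslinking enzyme Lox (-0.30 ± 0.14) did not pass, but fell on FPKM as deposited (adjusted p = 0.0239 and 0.00539).

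Fibronectin and several elastic fibre genes were lower later, and 5 of the 14 elastic fibre genes fell and 3 rose (5 without PN28). Over all genes 19.7% were higher and 20.8% lower, and the median log2 change of this list was 0.16, so the list as a whole did not fall. Fn1, which encodes fibronectin, was at 238 and 247 FPKM in the neonatal libraries and at 10.9 and 6.91 FPKM, a log2 change of -4.65 ± 0.29, and subtracting the cardiomyocyte profile left it at -4.63. Elastin, Eln, fell from 621 and 790.3 FPKM to 129 and 62.6 FPKM, the fetal fibrillin Fbn2 from 14.6 and 18.9 to 0.862 and 0.567 FPKM and the microfibril protein Mfap2 from 146 and 158 to 22.8 and 19.2 FPKM. The adult fibrillin Fbn1 (-0.30 ± 0.36) did not pass. In ventricles Fn1 went from 16.9 FPKM at E17 to 0.0261 FPKM at PN90 and Eln from 35.9 to 1.25 FPKM. Matricellular genes, whose products regulate cells rather than build fibres, were called higher in 5 of 18 cases and lower in 3 (5 without PN28 and 6 on FPKM as deposited), close to the 19.7% and 20.8% over all genes. Fgl2, a fibrinogen-like protein, rose from 7.1 and 6.91 FPKM to 117 and 178 FPKM and Smoc2 by 2.28 ± 0.22, while Ccn3 fell from 101 and 80.9 FPKM to 14.9 and 14.4 FPKM. Sparc, at 2147 and 2039 and then 2065 and 1133 FPKM, was among the most abundant and did not pass.

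Proteoglycan and hyaluronan genes rose in 11 of 23 cases and fell in 4 (7 on FPKM as deposited). Prg4, which encodes the joint lubricant lubricin, was at 1.96 and 1.52 FPKM and then at 187 and 157 FPKM. The hyaluronan synthase Has1 rose from 11.6 and 7.26 FPKM to 228 and 259.7 FPKM and Tnfaip6, which crosslinks hyaluronan and is itself a target of inflammatory signals, from 123 and 100.3 to 615 and 689 FPKM. Small leucine-rich proteoglycans differed among themselves: Bgn rose by 0.92 and Lum by 0.76, while Aspn fell from 298 and 262 FPKM to 101 and 102 FPKM. Gpc3, a heparan sulphate proteoglycan of fetal growth, fell from 90.0 and 93.7 FPKM to 9.51 and 13.6 FPKM. Among matrix proteases and their inhibitors 9 of 27 rose and 5 fell, and 3 and 2 falls were left without neonatal replicates 1 and 2. The stromelysin Mmp3 was at 0.56 and 0.288 FPKM and then at 30.9 and 26.1 FPKM and the collagenase Mmp13 at 6.3 and 5.95 and then at 141 and 61.7 FPKM. The urokinase gene Plau rose from 28.9 and 32.8 FPKM to 226 and 269 FPKM, the gelatinase Mmp2 by 0.85 ± 0.11 and the inhibitor Timp1 from 55.5 and 29 to 293 and 211 FPKM. Mmp3 was at most 0.372 FPKM and Mmp13 at most 0.515 FPKM in ventricles.

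Myofibroblasts are the contractile, matrix-producing state that fibroblasts take on in a healing wound or on stiff plastic. Of 21 genes listed for this state 4 rose and 9 fell. Acta2, smooth muscle actin, was at 112 and 78.5 FPKM and then at 44.4 and 34.5 FPKM, and its fall (-1.24 ± 0.40, adjusted p = 0.0419) rested on few libraries. It missed the threshold without neonatal replicate 1 (adjusted p = 0.196), without replicate 2 (0.082), without PN28 (0.0538) and without PN60 (0.11), and with the cardiomyocyte profile subtracted (-0.76, adjusted p = 0.181). Tagln, another smooth muscle gene, fell by 0.77 ± 0.24 and missed the threshold after subtraction (adjusted p = 0.0808) and without neonatal replicate 1 (0.187), replicate 2 (0.0618) or PN60 (0.0909). Cthrc1, a secreted marker of activated fibroblasts, fell from 60.7 and 55 FPKM to 3.24 and 2.22 FPKM, and the cadherin gene Cdh11 by 1.96 ± 0.18. The collagen-binding integrin gene Itga11 rose from 0.527 and 0.552 FPKM to 7.18 and 14.9 FPKM.

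Transforming growth factor beta drives that state. Of 15 ligands of the family 4 rose and 3 fell; 2 rises were left without neonatal replicate 2, and 1 fall without PN28 or either neonatal replicate. Bmp2 rose from 9.33 and 10.5 FPKM to 27.4 and 45.6 FPKM and Tgfb2 from 22.4 and 21 to 37.2 and 50.7 FPKM, Tgfb3 did not pass (-0.20 ± 0.26; adjusted p = 0.00433 without PN60), and Gdf6 fell by 1.36 ± 0.21. Tgfb1 rose by 0.53 ± 0.16 but missed the threshold on FPKM as deposited (0.19, adjusted p = 0.374) and without neonatal replicate 1 (0.0955), replicate 2 (0.15) or PN60 (0.0924). Antagonists leaned upwards, with 7 of 17 higher and 1 lower, or 4 higher when either neonatal replicate was left out and 3 and 2 lower without PN60 and neonatal replicate 2: follistatin, Fst, rose from 1.62 and 1.69 FPKM to 11.9 and 13.2 FPKM and the Smad corepressor Tgif1 from 115 and 97.1 to 293 and 309 FPKM, while Smad6 fell by 1.08 ± 0.17. Receptors and Smads of the pathway gave 5 rises and 2 falls among 15, of which 1 rise and no fall were left without neonatal replicate 2 and 2 rises and no fall without replicate 1. In the Wnt list 6 of 26 rose and 6 fell. Over all genes 19.7% were higher and 20.8% lower, and the Wnt and ligand lists lay close to these shares. The secreted inhibitor Wif1 rose from 1.41 and 1.83 FPKM to 13.9 and 33 FPKM and the ligand Wnt11 by 1.93 ± 0.28, whereas Sfrp2 fell from 20.7 and 27.1 FPKM to 4.65 and 4.96 FPKM and the receptor Fzd4 by 1.87 ± 0.23.

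Among secreted growth factors 10 of 27 rose and 5 fell (8 on FPKM as deposited). The heparin-binding pair Mdk and Ptn fell from 280.1 and 302 to 22.4 and 24.6 FPKM and from 35.8 and 39 to 2.73 and 4.41 FPKM. Fgf2 rose from 3.34 and 1.67 FPKM to 40.0 and 33.2 FPKM and Areg, a ligand of the epidermal growth factor receptor, from 2.89 and 1.9 to 12.3 and 44.4 FPKM. In ventricles Fgf2 rose as well, from 2.06 FPKM at PN1 to 11.7 FPKM at PN90. Penk, the enkephalin precursor gene, was among the 15 largest rises, at 1.01 and 1.05 FPKM and then at 70.0 and 65.7 FPKM.

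Transcription factors of heart and mesenchyme fell more often than they rose, 16 against 5 of 38. Sox4 fell from 68.3 and 69.5 FPKM to 14.1 and 11.9 FPKM and its relative Sox11 from 5.33 and 3.57 to 0.425 and 0.189 FPKM. Factors of the heart fields and of the epicardium, from which many cardiac fibroblasts arise, fell too: Hand2 by 2.13, the epicardial factor Wt1 by 1.81 and Gata4 by 0.77 on the log2 scale. Tbx20 fell from 61.2 and 55.3 FPKM to 17.2 and 28.7 FPKM, but missed the threshold without neonatal replicate 1 (adjusted p = 0.0594). Mesothelial and epicardial markers fell in 8 of 9 cases, with sums of 107 and 118 FPKM in the neonatal libraries and 37.2 and 34.5 FPKM later, and 3 of the 9 were called without neonatal replicate 2 and 5 without PN28. Their part in the fall of Wt1 was not tested. Tcf21, the factor that marks resident cardiac fibroblasts, was at 297 and 310.3 FPKM and 285 and 343 FPKM (0.04 ± 0.14), and the receptor gene Pdgfra at 53.4 and 38.2 and 46.5 and 54.3 FPKM, and neither passed the test. Other fibroblast markers did change: Pi16 rose from 26.5 and 24.9 FPKM to 141 and 213 FPKM and Ddr2 from 31.8 and 19.1 to 129.6 and 90.7 FPKM.

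Genes of energy metabolism changed with the subtraction of the cardiomyocyte profile. Of 48 oxidative phosphorylation genes 38 fell and none rose (1 without PN60), with a median log2 change of -0.67, and after subtraction 6 fell and 6 rose with a median of 0.01. Atp5g1 changed by -1.08 before and -0.13 after. Of 18 glycolysis genes 6 rose (3 without neonatal replicate 2) and 2 fell (5 on FPKM as deposited). Hexokinase 2, Hk2, rose from 23.5 and 12.9 FPKM to 137 and 149 FPKM and Hk1 by 1.43 ± 0.16, and Pfkm and Ldhb fell by 1.56 and 2.38 before subtraction and stood at -0.50 and -0.25 after it. The cardiac splicing factor Rbm20 lost its fall in the same way (-1.31 before, 0.15 after, adjusted p = 0.46). Of 27 lysosome genes 14 rose (8 without neonatal replicate 1) and 2 fell (0 without replicate 2). The protease gene Ctsb rose from 96.8 and 133 FPKM to 443 and 281 FPKM, beside the macrophage markers. Of 18 cholesterol synthesis genes 7 fell and 1 rose, and Sqle, the squalene epoxidase gene, fell from 23.5 and 15.7 FPKM to 4.86 and 8.0 FPKM. The count for ribosomal protein genes changed with the setting: 13 of 49 fell, against 44 on FPKM as deposited, 7 without PN60 and 1 when either neonatal replicate was left out. After subtraction 4 fell, and 5 did with only the 4 fibroblast libraries fitted. The shares to set beside the counts of all these metabolism, lysosome and ribosomal protein lists are 19.7% of all genes higher and 20.8% lower.

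**Figure D4:**
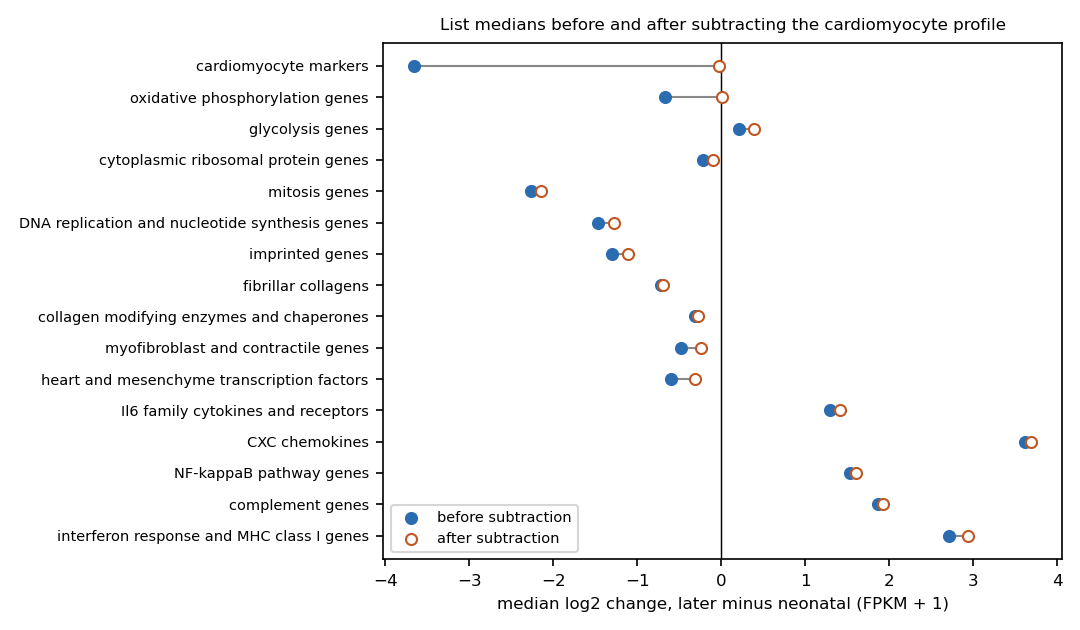
Median log2 change, later minus neonatal fibroblasts, of 16 gene lists before (filled) and after (open) the cardiomyocyte profile was subtracted from each fibroblast library. Cardiomyocyte markers move to about 0 (-3.65 to -0.03) by construction, because their median ratio set the amount subtracted. Oxidative phosphorylation genes move to about 0 as well (-0.67 to 0.01), while the medians of mitosis genes (-2.27 to -2.15) and imprinted genes (-1.30 to -1.11) stay below -1.

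Set beside cardiomyocytes of like ages, the change in fibroblasts differed for 7073 genes (58.6%; limma test of the difference between the changes, adjusted p under 0.05), and 1492 genes moved in opposite directions with both changes called, 659 of them up in fibroblasts and down in cardiomyocytes. Fibroblasts were isolated by preplating at each age, whereas cardiomyocytes came from preplating in neonates and from Langendorff perfusion later, and the RNA kit differed between the cell types, so cell type and preparation cannot be told apart in this test. The ventricle libraries gave another view. The list medians of the ventricle change from PN1 to PN28 and to PN90 lay at -3.16 and -3.23 for mitosis genes, -1.17 and -1.37 for imprinted genes and 1.13 and 1.59 for complement genes, and at 0.06 and 0.24 for CXC chemokines and 0.22 and 0.33 for NF-kappaB pathway genes, where the fibroblast medians were 3.61 and 1.53. For CC and other chemokines they lay at 0.36 and 0.95, and for MHC class II genes at 2.57 and 2.47. The fibroblast median of CXC chemokines was 1.84 without the filter on mean FPKM. Genes near the floor can change little on this scale, and 4 of the 9 CXC chemokines stayed under 1 FPKM in every ventricle library. Of the 64 cytokine and chemokine genes 11 were at least 2-fold higher in ventricles at both later ages, against 6.84% of all genes. None was at least 2-fold lower.

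**Figure D5:**
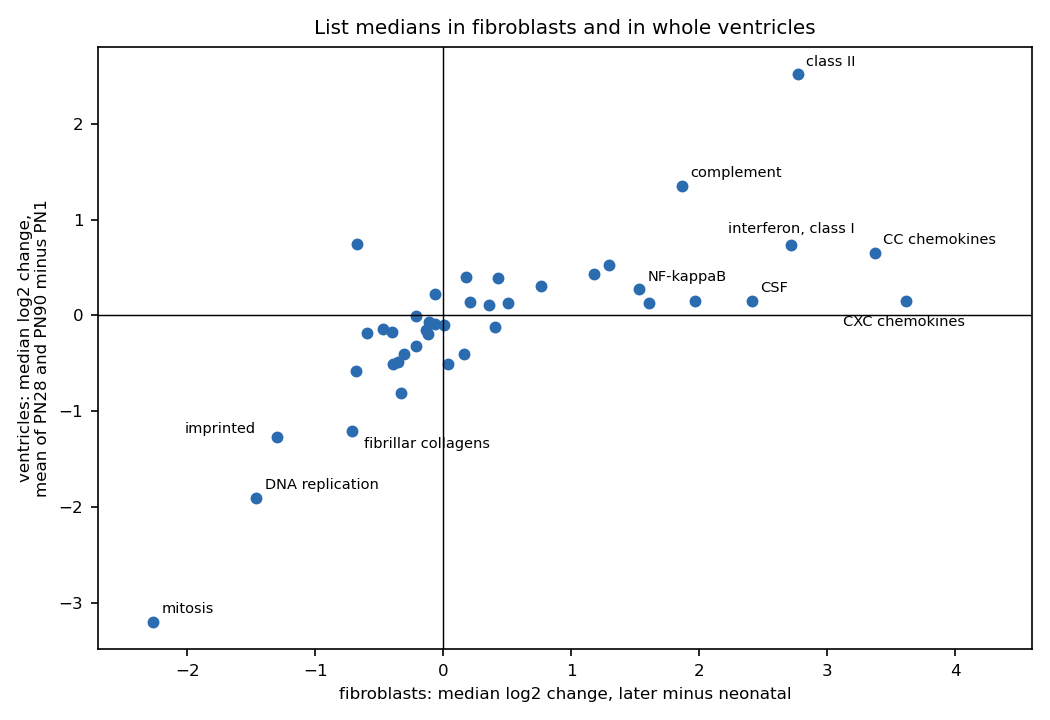
Median log2 change of each gene list in fibroblasts, later minus neonatal (horizontal), against its median log2 change in whole ventricles, the mean of PN28 and PN90 minus PN1 (vertical), 1 point per list. Mitosis and imprinted genes are low on both axes and complement and MHC class II genes high on both, while CXC chemokines, colony-stimulating factors and NF-kappaB pathway genes are high in fibroblasts and near 0 in ventricles. In every ventricle library 4 of 9 CXC chemokines and 4 of 8 colony-stimulating factors and receptors were under 1 FPKM, where this scale shows little change.

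The shares of isoforms within genes were compared as well. Of 11164 transcripts of 3917 genes, 213 gained and 221 lost share of their gene's FPKM (3.89% in all; limma on the log2 ratio of a transcript to the others of its gene, adjusted p under 0.05 and at least 10 percentage points). Fbln2, an elastic fibre gene whose total did not pass the test (0.25 ± 0.11; adjusted p = 0.0451 without PN28), shifted from Fbln2-202, at 52.9 and 48.6% of its FPKM in the neonatal and 17.6 and 14.4% in the later libraries, to Fbln2-201, at 23.9 and 20.4% and then 57.8 and 59.4%. The shares of neither isoform overlapped between the groups. Arhgap24, a GTPase-activating protein for Rac, shifted from isoform 205 (83.5 and 86.8% and then 4.2 and 9.05%) to isoform 203 (12.9 and 11.6% and then 93.5 and 86.9%). Lifr, the Lif receptor, gained isoform 202 (17.1 and 19.1% and then 40.3 and 39.9%). Slc8a1, the sodium-calcium exchanger of muscle, moved with the cardiomyocyte markers: Slc8a1-201 held 91.9 and 89.3% in neonatal fibroblasts and 15.8 and 10.1% later, and it held 91.5 and 92% in neonatal and 94.1 and 95.4% in later cardiomyocytes. Its gene total was 7.7 and 7.2 FPKM in the neonatal and 1.97 and 3.45 FPKM in the later fibroblast libraries, a log2 change of -1.22 that turned to 0.31 after subtraction. Without neonatal replicate 2, 70 transcripts gained and 69 lost share, and without replicate 1, 98 and 95. Tk1, the S phase thymidine kinase, lost share of isoform 201, from 64 and 59.4% to 9.92 and 11.7%, as its total fell from 9.62 and 11.1 FPKM to 3.13 and 3.1 FPKM.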

How the data were processed

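Per the submitters' processing notes, reads were aligned with TopHat2 2.0.5 to mm9 and quantified with Cufflinks 2.1.1; the sources used here do not name the annotation release. The authors deposited 1 table per library with, per the file headers, the FPKM of each transcript, its confidence bounds and its coverage, a read depth signal. For 94696 transcripts a library, gene names came from GENCODE M21, which matched 87.0%. Gene FPKM was the sum of transcripts of at least 200 nucleotides, and 90 genes with a transcript whose status was HIDATA or FAIL were left out. The 8 cell libraries were scaled by the median ratio to their gene geometric means, and printed FPKM are scaled. Genes with a mean of at least 1 FPKM were tested with limma 3.58.1 (R 4.3.3) on log2(FPKM + 1), with 4 classes (fibroblasts and cardiomyocytes, neonatal and later), an intensity trend and 4 residual degrees of freedom. Isoform ratios had 0.5 FPKM added, in genes with a mean of at least 5 FPKM. Both fits were run on simulated data with independent normal noise of the fitted variances. Such data hold no preparation or age effects shared by libraries, so they say nothing about those. Depth in reads is unknown. Ventricles, scaled separately, entered no test.

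The later and neonatal groups, gene lists and genes were chosen with earlier results of these data known. Named genes were drawn from the 15 largest rises and falls, Il6, H19, Dlk1 and Prg4, in each list the 4 called members of largest change and the 3 of highest mean, a fixed set of well-known genes, and the 5 isoforms of largest rise and fall in share with their genes. Not all genes of these sets are described, and among the isoform genes Cmc2, Myl4, Nt5c3 and Nudt6 are not. Aspn, Bst2, Cd59a, Col6a3, Fbn1, Fos, Gbp2, Gbp3, Gbp7, H2-T23, Ifih1, Il6ra, Il6st, Impact, Lifr, Meg3, Oas1a, Osmr, Pcna, Peg3, Plagl1, Stat2, Stat3, Tk1 and the isoforms of Fbln2 and Lifr were chosen after their values were seen. The cardiomyocyte profile subtracted in 1 alternative was the mean of cardiomyocytes of the same stage times the median marker ratio, with a floor at 0. It also removes RNA of other cells present in the cardiomyocyte libraries. Promoter windows were RefSeq sequences of GRCm38.p6 and gene coordinates are those of the mm9 files.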

Additional observations from a re-analysis of the deposited data

Results flagged for a closer look

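The change with age differed between fibroblasts and cardiomyocytes for 7073 genes (limma test of the difference, adjusted p under 0.05). Among the 15 largest rises, the 15 largest falls, Il6, H19, Dlk1 and Prg4, 12 genes moved in opposite directions in the 2 cell types with both changes and their difference past the threshold. Of genes higher in later fibroblasts and lower in later cardiomyocytes, the fibroblast change minus the cardiomyocyte change was 10.96 for Il6, 9.09 for Cxcl2, 8.84 for Cxcl3 and 6.60 for Prg4 on the log2 scale. The other 8 were sarcomere genes and Ckm, the muscle creatine kinase, which fell in fibroblasts and rose in cardiomyocytes: the difference was -6.93 for Myl2, -7.40 for Myl3, -6.77 for Tnnt2, -5.98 for Myh7, -6.04 for Actn2, -6.34 for Ckm, -6.69 for Tnni3 and -6.40 for Mybpc3. For these 8 the fall in fibroblasts stands beside the cardiomyocyte marker sums of the neonatal libraries.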

How the results depend on the processing

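Of 175 genes named in the report, 146 stayed on the same side of the threshold in every one of the 15 alternatives that gave them a value. Where they passed it, their direction was also the same. Of 2610 such values 62 missed a threshold that the reported value passed and 24 passed it newly. Another 2 had the opposite sign where the reported or the alternative value passed the threshold. Both came after subtraction of the cardiomyocyte profile (Rbm20 at 0.15 and Slc8a1 at 0.31). Changes of sign where neither value passed were not counted. The number of genes higher later moved from 2382 to 1474 on FPKM as deposited, to 1489 with mitochondrial genes removed and equal sums, and to 1528 with only the 4 fibroblast libraries. The number lower moved from 2507 to 4656, to 4706 and, with those 4 libraries, to 1685, and to 1578 after subtraction, where 3035 were higher. Leaving out 1 library gave 1365 to 3081 genes higher, 1407 to 3129 lower, 5780 to 8010 whose change differed from that of cardiomyocytes, and 139 to 536 isoforms; with only the 4 fibroblast libraries 221 isoforms were called. In both 4-library fits there are fewer residual degrees of freedom. The other causes were not tested. No paired analysis was possible because the labels number no replicates, and the numbers used here follow the order of deposit and tie no library to one of another group. With 1 library at PN28 and 1 at PN60, each left out in turn, the remaining library is assumed to vary like the other groups.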
